A study of Mus musculus with 24 samples.

Results

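Cbr2, Rac3 and 5033404E19Rik are 3 of the 21441 genes in RNA-seq tables of the mouse duodenum, ileum and colon. They were selected on the difference of FPKM between calcitriol-treated and vitamin D-deficient mice, which was wider in the colon than in the small intestine. That contrast, per tissue and within 2 naming schemes of the libraries, is therefore given below as a description with no test. The rule did not use neighbouring genes, pathway genes or sequence. It did not name the level between tissues, but the level limits the difference that a low gene can show.

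All mice were wild type on the C57BL6J background. The treated mice, labelled 3xD, received 3 injections of calcitriol, the hormonal form of vitamin D, at 1 ng per g of body weight, given 48, 24 and 6 h before the end of the experiment. The deficient mice, labelled minusD, have the treatment "none" in their labels, although 3 of their 4 columns per tissue are named Vehicle. Ages in the labels run from 10 to 14 with no unit, and each tissue has 2 females among 4 treated samples and 1 among 4 deficient samples. The values are FPKM, fragments counted per length of gene and scaled by the authors for each library. They cover 8 duodenum libraries, 7 ileum libraries (4 treated and 3 deficient) and 8 colon libraries. Libraries are named by their column numbers: treated 1, 3xD5711, 3xD5720 and 3xD5734, and minusD5718 (absent from the ileum) and deficient 1, 2 and 3. Nothing in the labels says which numbers belong to the same mouse, or that samples of a group came from separate animals, so errors cover only the spread between these libraries.

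Calcitriol acts through the vitamin D receptor, a nuclear receptor that pairs with a retinoid X receptor and binds direct repeats of a 6-base motif with 3 bases between them. In the intestine it is known for raising genes of calcium uptake, such as the channel gene Trpv6 and the calcium-binding protein gene S100g, and Cyp24a1, whose enzyme degrades the hormone. Cbr2 encodes carbonyl reductase 2, a short-chain dehydrogenase that reduces aldehydes and ketones. It is a relative of Dcxr, the dicarbonyl and xylulose reductase. Rac3 encodes a small GTPase that switches actin and adhesion signalling, close to Rac1 and Rac2. 5033404E19Rik is listed by RefSeq as a transcribed pseudogene.

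Cbr2 and Rac3 lie on the same stretch of chromosome 11. On NCBIM37, the assembly of mm9, Rac3 spans chr11:120582784-120585283 on the plus strand, and Cbr2 spans chr11:120590803-120593428 on the minus strand. Dcxr lies between them at chr11:120586713-120588595, also on the minus strand. The gap from Rac3 to Dcxr is 1429 bases and the gap from Dcxr to Cbr2 is 2207 bases, so 5519 bases separate Rac3 from Cbr2. 5033404E19Rik is not in the gencode vM1 annotation. RefSeq places it inside the long noncoding RNA gene Gm34969 on chromosome 1, where the nearest protein-coding gene is Slc30a10, which encodes a manganese exporter and belongs to the panel of vitamin D genes that the study measured by quantitative PCR. Gm34969 was not analysed here, and reads of the overlapping genes cannot be told apart.

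The promoter windows of Cbr2, Dcxr and Rac3, from 250 bases before to 50 bases after the RefSeq start on GRCm38.p6, are shown because these genes are neighbours whose colon values are compared below. Capitals mark every match on either strand to the 6-base motif AGGTCA, to AGTTCA, to GGGTCA or to GGTTCA.
Cbr2, minus strand, chr11:120731972-120732271: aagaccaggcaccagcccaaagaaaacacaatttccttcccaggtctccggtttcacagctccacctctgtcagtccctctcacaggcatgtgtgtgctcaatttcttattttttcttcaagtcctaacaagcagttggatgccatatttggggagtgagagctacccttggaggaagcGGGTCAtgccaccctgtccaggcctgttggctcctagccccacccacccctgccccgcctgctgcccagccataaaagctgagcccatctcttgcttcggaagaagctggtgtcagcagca
Dcxr, minus strand, chr11:120727235-120727534: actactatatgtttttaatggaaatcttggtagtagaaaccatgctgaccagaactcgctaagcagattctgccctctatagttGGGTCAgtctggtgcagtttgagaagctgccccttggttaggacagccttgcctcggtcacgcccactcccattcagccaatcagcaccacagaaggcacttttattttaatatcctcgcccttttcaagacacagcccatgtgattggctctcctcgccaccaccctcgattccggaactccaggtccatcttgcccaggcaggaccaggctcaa
Rac3, plus strand, chr11:120721218-120721517: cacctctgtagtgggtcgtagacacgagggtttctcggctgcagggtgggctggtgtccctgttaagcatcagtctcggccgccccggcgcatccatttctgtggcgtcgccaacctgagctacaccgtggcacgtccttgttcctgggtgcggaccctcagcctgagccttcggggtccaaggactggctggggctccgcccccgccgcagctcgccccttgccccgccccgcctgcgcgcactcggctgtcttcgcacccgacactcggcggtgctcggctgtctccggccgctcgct

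The Cbr2 window held GGGTCA once, beginning 71 bases before the start, and the Dcxr window held it once, beginning 166 bases before the start. The Rac3 window held none of the 4 motifs. GGGTCA occurs in 13.5% of the 27025 promoter windows of that length. No full DR3 element, the vitamin D receptor repeat, was found in these 3 windows, and only 9 of all windows (0.0333%) held it. G and C made up 54.7% of the Cbr2 window, 50.7% of the Dcxr window and 69.0% of the Rac3 window, against a median of 52.7% over all windows.

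Wider searches of 100 kb on each side of the gene start in NCBIM37 gave a single DR3 match near Cbr2 and Rac3 and a single match near Slc30a10. They are shown with both 6-base motifs in capitals, since they are the receptor's repeat nearest to these genes.
chromosome 11, plus strand, chr11:120640399-120640413: AGGTCAtccAGTTCA
chromosome 1, plus strand, chr1:187338913-187338927: GGGTCActgGGGTCA

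The chromosome 11 match has its centre 46978 bases upstream of the Cbr2 start and 57622 bases downstream of the Rac3 start. The chromosome 1 match lies 60193 bases downstream of the Slc30a10 start. Such a match occurs within the same distance of 42.4% of 19691 protein-coding genes, so its presence is common, and it is a description of letters rather than of a binding site.

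In the colon, Cbr2 stood at 124.0, 81.5, 46.6 and 43.5 FPKM in treated 1, 3xD5711, 3xD5720 and 3xD5734. The deficient libraries stood at 15.5, 15.5, 22.6 and 15.2 FPKM in minusD5718 and deficient 1, 2 and 3. Treated values lay above deficient values in every library, and they were spread over a much wider range than the deficient ones. The group means were 73.9 ± 37.6 FPKM (SD, n = 4) and 17.2 ± 3.598 FPKM (SD, n = 4), a ratio of 4.30. On the scale of log2(FPKM + 1), which understates changes of low genes, treated minus deficient was 1.93 ± 0.38 (SE). Read numbers recovered from the FPKM steps gave 5141 treated and 1555 deficient reads. Scaled by the deposited FPKM factor of each library, and not by its recovered reads, their ratio was 4.64. Its exact 95% interval of 4.38 to 4.91 covers counting error only. In bulk tissue, a change in the number of cells that hold a transcript and a change in RNA per cell cannot be told apart.

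Rac3 in the colon read 11.3, 9.52, 9.73 and 8.92 FPKM in the same 4 treated libraries. Its deficient values were 5.76, 4.63, 5.89 and 4.97 FPKM in minusD5718 and deficient 1, 2 and 3. Again the groups did not overlap, and here both groups were tight. The means were 9.87 ± 1.02 FPKM (SD, n = 4) treated and 5.31 ± 0.612 FPKM (SD, n = 4) deficient, a ratio of 1.86 and a log2 difference of 0.78 ± 0.10 (SE).

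5033404E19Rik in the colon stood at 70.4, 50.9, 55.4 and 45.7 FPKM in treated 1, 3xD5711, 3xD5720 and 3xD5734. The deficient libraries gave 7.37, 9.95, 13.3 and 1.61 FPKM, lowest in deficient 3. The lowest treated library was thus well above the highest deficient one. The group means were 55.6 ± 10.6 and 8.07 ± 4.95 FPKM (SD, n = 4 each), a ratio of 6.89, and the log2 difference was 2.87 ± 0.56 (SE). The reads behind these means numbered 2274 treated and 448 deficient.

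The 3 genes thus had groups that did not overlap in the colon, with treated above deficient, which 1.86% of the 18203 genes with any colon value above 0 also showed. The choice of the genes fixed this count, and nothing is read from it. Treated 1 was the highest colon library for each of the 3 genes, and it was the lowest treated colon library for Cyp24a1, with 2.67 FPKM against 108 to 370 FPKM in the other 3. Without treated 1, the log2 differences in the colon were 1.64 for Cbr2, 0.72 for Rac3 and 2.75 for 5033404E19Rik. Within the serial-numbered columns (treated 1 against deficient 1 to 3) they were 2.76, 1.00 and 3.26, and within the 4-digit columns (3 treated against minusD5718) they were 1.76, 0.62 and 2.62. The naming schemes differed in depth: in the colon the recovered reads per library ran from 29142265 to 30620138 in serial columns and from 15596095 to 18732802 in 4-digit columns.

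In the duodenum, Cbr2 was close to the floor of detection. Its treated values were 0.260, 1.33, 0.380 and 0.487 FPKM in the order used above, from 5 to 18 reads each. The deficient values were 0.452, 0.245, 0.929 and 0.544 FPKM. The groups overlapped, and the log2 difference was 0.04 ± 0.24 (SE). The pooled reads, 35 treated and 52 deficient, gave a ratio of 1.08, scaled in the same way. Its exact 95% interval of 0.683 to 1.69 covers counting error and not the spread between libraries.

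Ileal Cbr2 was higher than that but still low. It read 2.34, 1.55, 1.94 and 3.10 FPKM in treated 1, 3xD5711, 3xD5720 and 3xD5734, and 1.05, 2.29 and 0.950 FPKM in deficient 1, 2 and 3. Deficient 2 lay among the treated libraries, so the groups overlapped. The log2 difference was 0.43 ± 0.28 (SE), and the pooled-read ratio was 1.46 with a counting interval of 1.15 to 1.87.

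Rac3 showed no common direction over the 3 tissues. In the duodenum it read 1.46, 1.66, 1.92 and 1.82 FPKM in the treated libraries and 1.97, 1.34, 1.42 and 2.01 FPKM in the deficient ones, which spanned a wider range on both sides. The log2 difference there was 0.02 ± 0.11 (SE). In the ileum its values were 2.78, 3.23, 1.58 and 2.24 FPKM treated against 3.85, 3.01 and 3.98 FPKM deficient. 3xD5711 was the only treated ileum library above a deficient one, and the log2 difference was -0.43 ± 0.18 (SE), opposite in sign to the colon. The pooled-read ratio in the ileum was 0.721 (counting interval 0.598 to 0.868).

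5033404E19Rik differed from the other 2 genes outside the colon. In the duodenum it read 0.923, 1.19, 0.368 and 1.12 FPKM in the treated libraries, from 3 to 11 reads each. Among the deficient libraries it had 1 read in minusD5718 (0.121 FPKM), 1 read in deficient 2 (0.0680 FPKM) and none in deficient 1 and 3, where 3 reads would be 0.169 and 0.155 FPKM. In the ileum the treated values were 0.400, 0.908, 0.910 and 0.625 FPKM from 6 to 8 reads, against 3 reads in deficient 2 (0.144 FPKM) and none in deficient 1 and 3. Treated thus lay above deficient in both tissues, at levels where single reads decide the value.

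This was the only one of the 3 genes whose groups did not overlap in the duodenum (background 1.61% of 17846 genes) or in the ileum (background 2.86% of 17974 genes). Pooled over libraries and scaled as the deposited FPKM, 34 treated against 2 deficient reads in the duodenum gave a ratio of 27.3 (counting interval 6.99 to 234). In the ileum 28 against 3 reads gave 10.3 (3.19 to 53.0). The colon ratio from reads was 7.12 (6.43 to 7.90). The ratios are given side by side as a description, since these intervals leave out the spread between libraries. Its log2 differences were 0.84 ± 0.16 in the duodenum and 0.70 ± 0.13 in the ileum (SE) with a pseudocount of 1, and 2.75 ± 0.44 and 2.53 ± 0.49 with a pseudocount of 0.1, where the colon gave 3.09 ± 0.67. For Cbr2 and Rac3 the smaller pseudocount left the colon difference the highest, at 1.98 ± 0.38 and 0.88 ± 0.11.

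**Figure D1:**
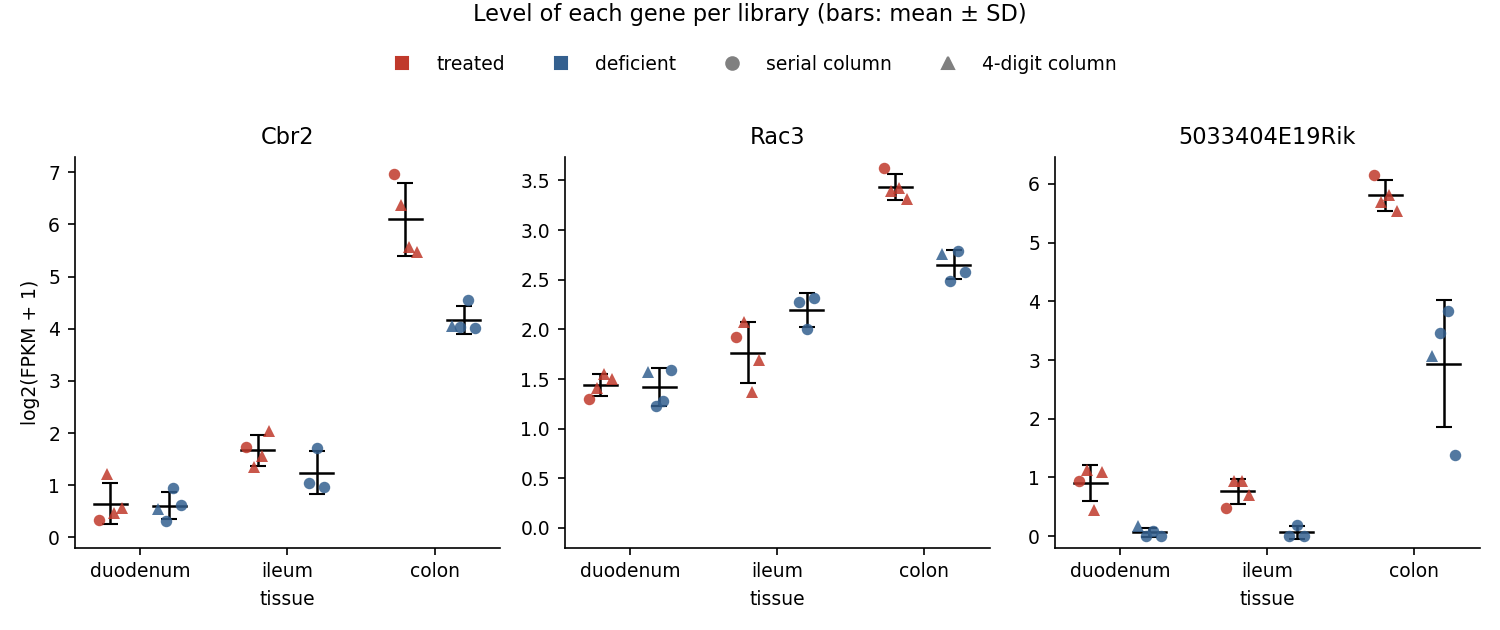
Level of Cbr2, Rac3 and 5033404E19Rik as log2(FPKM + 1) in each library (y axis) of the duodenum, ileum and colon (x axis), for treated (red) and deficient (blue) mice. Circles are serial-numbered and triangles 4-digit columns, and black bars are group means ± SD. All 3 genes have their highest values in the colon, where treated and deficient libraries do not overlap, while in the small intestine only 5033404E19Rik has groups that do not overlap.

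**Figure D2:**
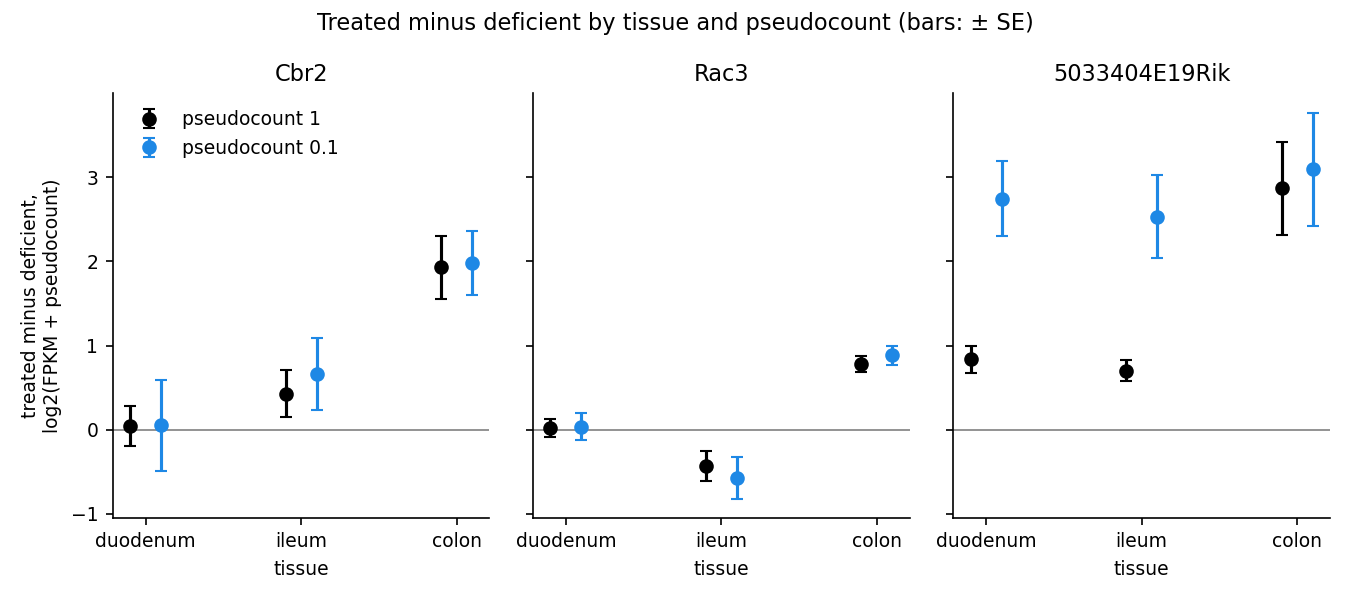
Treated minus deficient (y axis, log2 of FPKM plus the pseudocount, bars ± SE) for each gene in the 3 tissues (x axis), with a pseudocount of 1 (black) and 0.1 (blue). For 5033404E19Rik the duodenum and ileum points move from 0.84 and 0.70 to 2.75 and 2.53, close to the colon's 3.09, whereas the Cbr2 and Rac3 points keep their order over tissues.

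On the filter of at least 1 FPKM in at least 3 libraries, all 3 genes passed in the colon, Cbr2 and Rac3 passed in the ileum, and Rac3 alone passed in the duodenum. The level between tissues was compared over the mean of both treatment groups, a contrast balanced over treatment. That mean includes the treated libraries, so it holds part of the colon difference that the rule used. Its tests are therefore not free of the choice of genes. Because each tissue's table was normalized on its own, the libraries were put on a common scale by their recovered reads. Because Cbr2 in the duodenum and 5033404E19Rik in the duodenum and ileum did not pass the filter, and entered this fit through the tissues where they are higher, their contrasts with those tissues are given as a description with no test.

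Cbr2 was 3.52 ± 0.21 (SE) log2 units higher in the colon than in the ileum (limma, Benjamini-Hochberg adjusted p = 1.8e-11). This p-value includes the treated colon values that the rule used. Under the 34 alternatives, deficient libraries alone among them, the difference ran from 2.82 to 4.23. In the same direction 27.0% of the 13355 genes tested were called higher, so a call alone is common. Its colon level exceeded that of the duodenum by 4.36 ± 0.20, and its ileum level exceeded that of the duodenum by 0.84 ± 0.21, or by 0.65 in deficient libraries alone. Cbr2 lay above 90.1% of all genes in the colon tables and above 41.8% in the duodenum. In deficient mice the colon mean was 29.0 times the duodenum mean on the common scale, and in treated mice it was 102 times. Over the ileum mean it was 10.8 times in deficient and 28.7 times in treated mice.

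Rac3 ran in the same order over tissues with smaller steps. It was 1.47 ± 0.10 log2 units higher in the colon than in the duodenum (limma adjusted p = 1.2e-10), 0.91 ± 0.11 higher than in the ileum (adjusted p = 6.3e-07) and 0.56 ± 0.11 higher in the ileum than in the duodenum (adjusted p = 0.00039). Of all genes tested, 45.1% were called higher in the colon than in the duodenum and 28.4% higher in the ileum than in the duodenum. In deficient libraries alone the step from ileum to colon was 0.34 and did not pass (adjusted p = 0.111), the highest adjusted p among the 34 alternatives of this contrast, which started at 2.5e-08. In treated libraries alone the step from duodenum to ileum was 0.33 and did not pass (adjusted p = 0.102).

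5033404E19Rik was 3.75 ± 0.23 log2 units higher in the colon than in the duodenum and 3.83 ± 0.24 higher than in the ileum (SE). Between ileum and duodenum the difference was -0.08 ± 0.24. In treated mice its colon mean was 51.6 times the duodenum mean on the common scale. With only 5 reads in all from the deficient duodenum and ileum, no such ratio is given for deficient mice.

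The common scale put the median gene 0.24 log2 units higher in the colon than in the duodenum, 0.10 higher than in the ileum, and 0.16 higher in the ileum than in the duodenum. Rescaling the libraries by median ratios brought these medians to -0.01, 0.01 and 0.01, and the share of calls that were higher in the colon than in the duodenum went from 70.8% to 48.0%. The corresponding shares went from 61.8% to 48.8% for colon against ileum and from 70.0% to 45.6% for ileum against duodenum. Under all 34 alternatives, Cbr2 was 3.47 to 5.63 log2 units higher in the colon than in the duodenum, Rac3 1.12 to 1.86 and 5033404E19Rik 2.81 to 5.56.

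**Figure D3:**
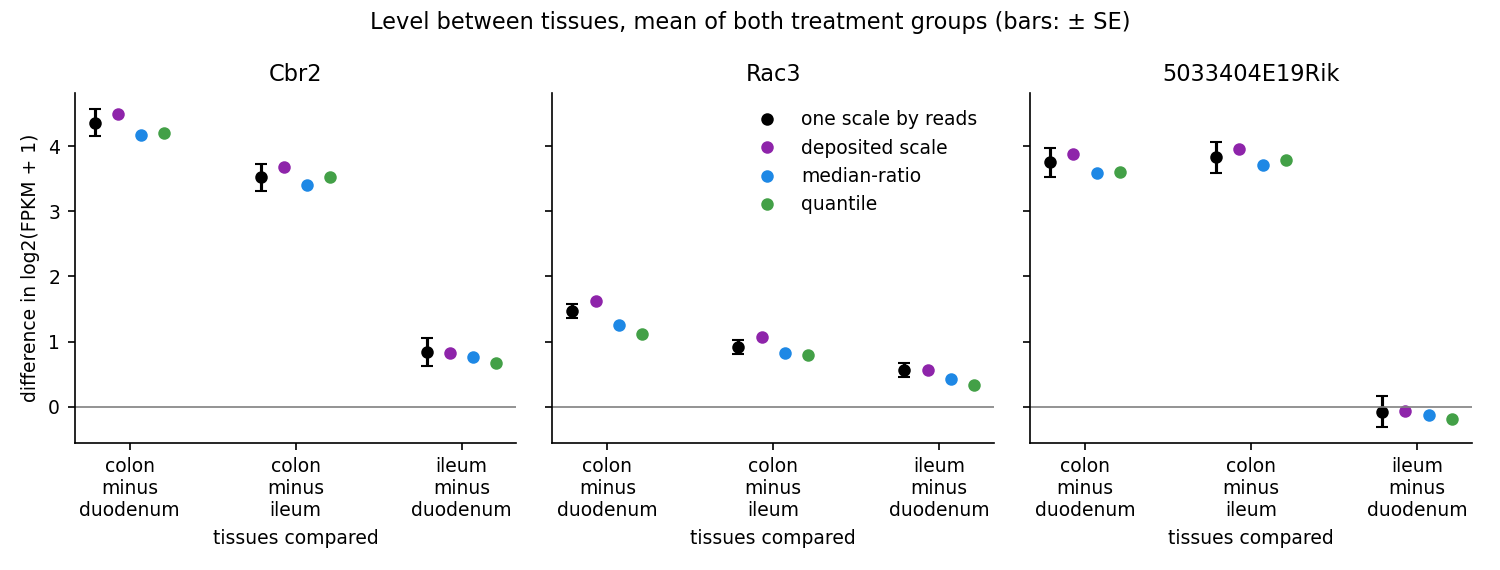
Difference in level between tissues (y axis, log2 units, mean of both treatment groups) for each gene and each pair of tissues (x axis), with the libraries on a common scale by reads (black, bars ± SE), as deposited (purple), after median-ratio rescaling (blue) and after quantile normalization (green). The colon points of Cbr2 and 5033404E19Rik lie at 3.4 or above under each scaling, those of Rac3 are lower, and 5033404E19Rik has points near 0 between ileum and duodenum.

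Genes around Rac3 and Cbr2 were examined next, as these 2 members share a locus. Of 20 other genes examined within 100 kb of either, 14 were in the tables and 11 passed the filter in the colon. None of the 11 passed limma's test at an adjusted p of 0.05 (background 0.0% of 12746 genes, with 746 genes, 5.85%, at an unadjusted p under 0.05), and 2 of the 11, Dcxr and Fasn, had an unadjusted p under 0.05. The 11 had a median log2 difference of 0.06 in the colon, beside -0.01 for all genes tested. In the duodenum and the ileum 10 neighbours were tested in each and 0 passed (background 0.0256% of 11734 and 0.0% of 12149 genes). The medians were -0.01 and -0.36, where all genes had 0.01 in both.

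Dcxr, which lies between Rac3 and Cbr2, read 57.5, 30.4, 32.8 and 33.2 FPKM in the colon of treated 1, 3xD5711, 3xD5720 and 3xD5734. Its deficient values were 24.1, 24.0, 27.1 and 19.9 FPKM. It was the only neighbour with all treated above all deficient libraries, as 2.22% of the genes tested in the colon were, and treated 1 stood well above the rest. Its log2 difference was 0.63 ± 0.20 (SE, limma adjusted p = 0.789). In the duodenum its difference was 0.13 ± 0.20 (adjusted p = 0.815) and in the ileum -0.59 ± 0.47 (adjusted p = 0.72), with overlapping groups in both.

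Lrrc45, whose end lies 341 bases before the start of Rac3, did not share that order in the colon. It read 22.2, 17.96, 17.3 and 17.6 FPKM treated and 19.2, 21.2, 21.7 and 20.9 FPKM deficient, with a log2 difference of -0.14 ± 0.11 (SE, limma adjusted p = 0.898). Fasn, the fatty acid synthase gene, was the only neighbour with all treated below all deficient libraries, a pattern of 2.32% of genes tested. It ran from 11.6 to 17.6 FPKM in treated and from 19.1 to 24.4 FPKM in deficient colon, a difference of -0.54 ± 0.14 (adjusted p = 0.707). The other 8 tested neighbours (Sirt7, Mafg, Aspscr1, Stra13, Rfng, Gps1, Dus1l and Ccdc57) had overlapping colon groups and log2 differences from -0.22 to 0.20.

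**Figure D4:**
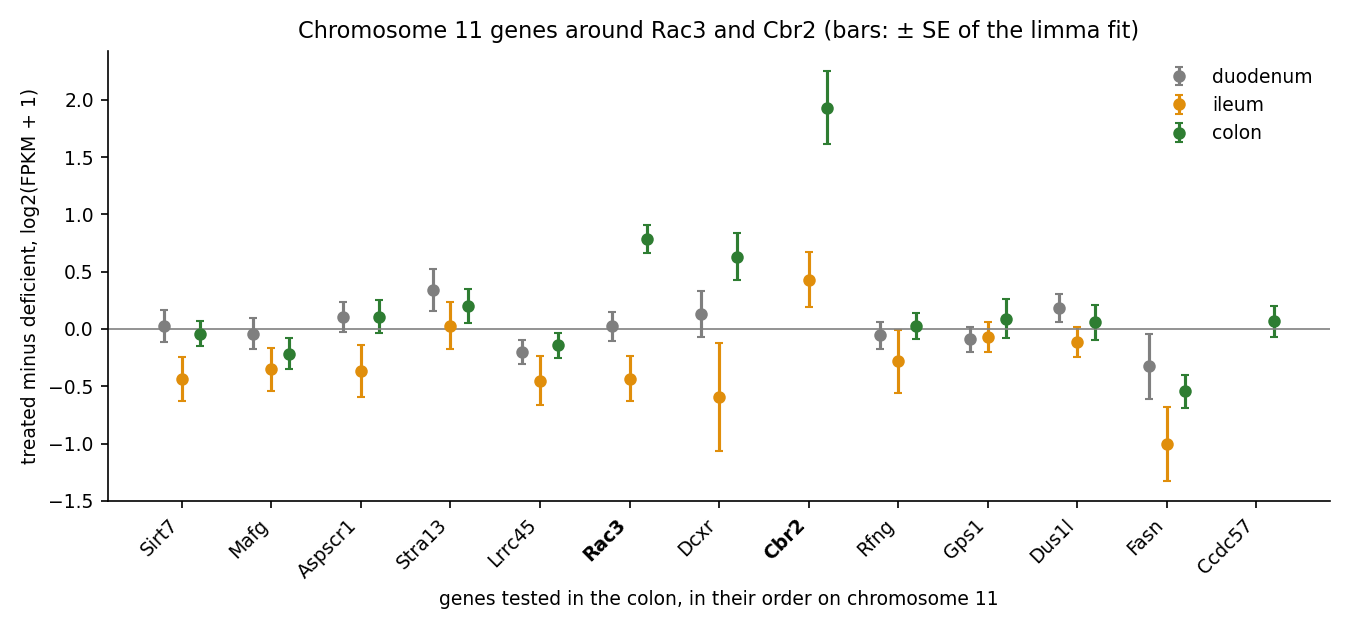
Treated minus deficient (y axis, log2 of FPKM + 1, bars ± SE of the limma fit) for Rac3, Cbr2 (bold) and the 11 neighbours tested in the colon, in their order along chromosome 11 (x axis), in the duodenum (grey), ileum (orange) and colon (green). In the colon the 3 adjacent genes Rac3, Dcxr and Cbr2 lie at 0.78, 0.63 and 1.93, and the others lie between -0.54 and 0.20. Rac3 and Cbr2 were selected on this difference, and Dcxr did not pass (limma adjusted p = 0.789).

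Cbr2 and Dcxr differed in how far their levels shifted between tissues. The ratio of Cbr2 to Dcxr ran from 1.31 to 2.68 over treated colon libraries and from 0.643 to 0.833 over deficient ones. In the duodenum it stayed between 0.0162 and 0.0893 over all 8 libraries, and in the ileum between 0.0593 and 0.565, where the highest value came from 3xD5720 with its low Dcxr of 3.42 FPKM. Dcxr itself was 0.73 ± 0.24 log2 units higher in the colon than in the duodenum (limma adjusted p = 0.012). The longest run of bases shared by the Cbr2 and Dcxr transcripts was 16, with 69.2% identity over 765 aligned columns. Rac3 and Rac2 shared a run of 23 bases at most (83.8% identity), and Rac3 and Rac1 a run of 20 (70.5%). The sources used here do not say how the authors assigned reads that fit both genes.

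On chromosome 1, Slc30a10 had all treated above all deficient libraries in each of the 3 tissues, as 5033404E19Rik did. Of genes with any value above 0, 1.61% had this order in the duodenum, 2.86% in the ileum and 1.86% in the colon. The choice of 5033404E19Rik fixed its order in the colon, so the likeness of the 2 genes there is a description. In the colon it read 42.8, 66.5, 81.7 and 156 FPKM in treated 1, 3xD5711, 3xD5720 and 3xD5734, and 10.97, 8.74, 18.4 and 2.31 FPKM in minusD5718 and deficient 1, 2 and 3. Its log2 differences were 3.08 ± 0.55 in the colon, 1.26 ± 0.41 in the duodenum and 2.57 ± 0.68 in the ileum (SE), none of which passed (limma adjusted p = 0.345, 0.499 and 0.706). Eprs, the next protein-coding gene beyond Slc30a10 and the glutamyl-prolyl-tRNA synthetase gene, ran from 40.5 to 56.5 FPKM in treated and from 30.2 to 41.2 FPKM in deficient colon, with overlapping groups and a difference of 0.27 ± 0.15 (adjusted p = 0.879).

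The pseudogene and Slc30a10 parted in their level over tissues. Slc30a10 was 1.42 ± 0.43 log2 units lower in the colon than in the duodenum by the balanced contrast (-1.42, limma adjusted p = 0.0065), where 5033404E19Rik was 3.75 higher. The difference between these contrasts was not tested. The ratio of 5033404E19Rik to Slc30a10 ran from 0.293 to 1.64 in treated colon and from 0.672 to 1.138 in deficient colon, so the groups overlapped. Over the duodenum libraries it was at most 0.0135 and over the ileum libraries at most 0.0350. Within the colon, deficient 3 was lowest and deficient 2 highest for both genes. Among treated colon libraries the orders ran the other way at the ends: treated 1 was highest for 5033404E19Rik and lowest for Slc30a10, and 3xD5734 was the reverse.

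**Figure D5:**
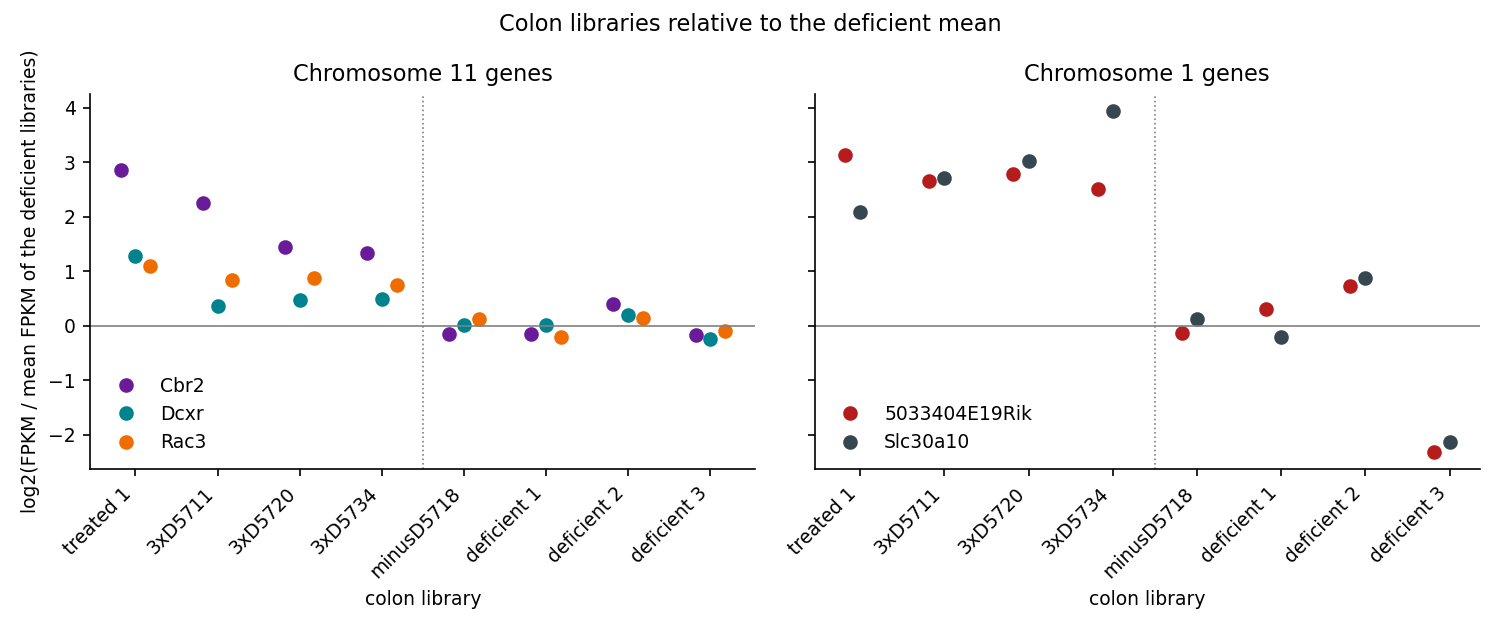
FPKM of each gene in each colon library (x axis) relative to the mean of the 4 deficient libraries (y axis, log2). The left panel has Cbr2, Dcxr and Rac3 and the right panel 5033404E19Rik and Slc30a10. Treated 1 has the highest Cbr2, Dcxr, Rac3 and 5033404E19Rik and the lowest Slc30a10 of the treated libraries, and deficient 3 is low for both chromosome 1 genes.

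The other genes of the pathways were taken from lists of reductases and of Rac signalling, and members of a list are named below when they passed or else had the 3 smallest p-values in the colon. No gene of these lists passed limma's test in any tissue. Of 26 carbonyl and xylulose reductase genes tested in the colon, 0 passed and 2 were higher at an unadjusted p under 0.05 (background 2.92% of genes), with a median log2 difference of 0.16. The smallest p-values belonged to Dcxr, to Hsd17b14 (0.52 ± 0.23, adjusted p = 0.846) and to Hsd17b10 (0.26 ± 0.15, adjusted p = 0.885). Dcxr was the only one of them whose groups did not overlap. Among 12 aldo-keto reductases tested, 0 passed and 0 had an unadjusted p under 0.05, and the median was 0.06. Their smallest p-values belonged to Akr1e1 (0.24 ± 0.13), Akr1c14 (-0.20 ± 0.13) and Akr1b7 (0.48 ± 0.30), with overlapping groups in each. All genes tested in the colon had a median of -0.01, and Cbr2 was at 1.93. In the duodenum 2 of 25 carbonyl and xylulose reductase genes were higher and 1 was lower at an unadjusted p under 0.05 (background 4.03% and 5.37%). In the ileum the counts were again 2 and 1 of 25 (background 3.09% and 2.74%).

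Regulators and effectors of Rac also gave no call. Of 35 exchange factors, GTPase-activating proteins and dissociation inhibitors tested in the colon, 0 passed, 2 were lower at an unadjusted p under 0.05 (background 2.93%), and the median was -0.17. Abr, which acts on Rac as both activator and inactivator, ran from 2.08 to 7.20 FPKM treated and from 7.85 to 11.2 FPKM deficient (-0.97 ± 0.30, limma adjusted p = 0.767). Elmo2, which forms an exchange factor for Rac with a Dock protein, was at -0.40 ± 0.16 (adjusted p = 0.846), and Arhgdig, a dissociation inhibitor, was at 0.46 ± 0.23 (adjusted p = 0.863), both with overlapping groups. In the duodenum 5 of 31 of these regulators were lower at an unadjusted p under 0.05, with a median of -0.08, and in the ileum 1 of 32 was, with a median of -0.02. Of 25 effectors tested in the colon, 0 passed and 1 was lower at an unadjusted p under 0.05, with a median of -0.04. Pak4, a kinase effector, had treated below deficient at -0.28 ± 0.11 (adjusted p = 0.846). Noxo1, a subunit of the colonic NADPH oxidase that Rac activates, had overlapping groups at 0.60 ± 0.30 (adjusted p = 0.863), as did Nckap1l at -0.33 ± 0.18 (adjusted p = 0.873). In the duodenum 5 of 25 effectors were lower and 1 was higher at an unadjusted p under 0.05, with a median of -0.11, and in the ileum 0 were lower and 1 was higher, with a median of 0.02. The share of lower genes among all tested in the duodenum was the 5.37% given above, and no difference between a list and the other genes was tested.

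The study's own quantitative PCR panel with the receptor gene Vdr, which the study chose for this treatment, gave 1 call of 6 genes tested in the duodenum and 0 of 6 in the colon, beside a background of 0.0256% and 0.0% of genes. The call was Cyp24a1 in the duodenum (7.91 ± 0.59, limma adjusted p = 0.003). In the colon Cyp24a1 was at 6.28 ± 1.26 (adjusted p = 0.456), S100g at 4.93 ± 0.78 (adjusted p = 0.275) and Trpv6 at 4.46 ± 0.56 (adjusted p = 0.109). Without treated 1, Cyp24a1 passed in the colon, at 7.76 with an adjusted p of 0.0005. Vdr ran from 101 to 139 FPKM in treated and from 80.2 to 141 FPKM in deficient colon, with overlapping groups.

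Likeness over libraries was measured as Pearson's r of log2(FPKM + 1) after each tissue's mean was taken away, over 23 libraries and 13390 genes. It is a description, since the libraries share their treatment contrast and their depth. The members were chosen on that contrast in the colon. Their likeness to each other and to other genes that differ with treatment is therefore partly fixed by the choice, and nothing is read from it. The nearest genes to 5033404E19Rik were Trpv6 (r = 0.85), S100g (0.83), Cbr2 (0.82), Xkr9 (0.80) and Slc30a10 (0.80). Cbr2 had 5033404E19Rik as its nearest gene, at the same 0.82, before Itm2a (0.78), Fam184b (0.78), Inmt (0.76) and Chrdl1 (0.74). Rac3 was nearest to Zfp445 (0.84), Surf1 (0.74), Gm16516 (0.71), Gadd45a (0.71) and Cox7a2l (0.70). Rac3 and Cbr2 correlated with each other at 0.58, and Dcxr with Rac3 at 0.65 and with Cbr2 at 0.43.

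Markers of other cell types were read beside these results. Cbr2 is also known from adipocytes and tissue macrophages. The summed level of 12 adipocyte markers ran from 446.9 to 568 FPKM in treated and from 267 to 444.1 FPKM in deficient colon. These groups did not overlap, though by a narrow gap, and the sums of all other marker lists overlapped in the colon. Fabp4 made up the largest part of the adipocyte sum, with colon means of 274 FPKM treated and 166 FPKM deficient. Of the 10 adipocyte markers tested, 0 passed, 7 had a positive difference, and each marker on its own had overlapping groups. The ratio of treated to deficient means was 0.676 for Scd1, 0.924 for Plin1 and 0.923 for Pck1, the 3 that were not positive. Adipoq ran from 13.7 to 21.7 FPKM treated and from 6.34 to 16.3 FPKM deficient, and Fabp4 from 214 to 314 FPKM against 113 to 218 FPKM. Retn was under 1 FPKM in every colon library. The summed level of 12 resident macrophage markers overlapped, at 138 to 224 FPKM treated and 119 to 214 FPKM deficient. Summed smooth muscle markers were highest in treated 1 (3749 FPKM), the library with the highest Cbr2. They were next highest in deficient 2 (3080 FPKM), the deficient library with the highest Cbr2. However, 3xD5711 and deficient 3 had nearly equal sums (2143 and 2142 FPKM), with Cbr2 at 81.5 and 15.2 FPKM. The lowest sum, 787 FPKM, was in 3xD5720, with Cbr2 at 46.6 FPKM. Fibroblast sums were also highest in treated 1 and deficient 2 (482 and 426 FPKM), and epithelium sums in treated 1 (10818 FPKM). The part of these markers in the results was not tested.

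Markers of the tissues followed the labels. Colon markers summed to 2411 to 8932 FPKM in the colon libraries and to at most 172 FPKM in the others, and Hoxb13 was at 90.8 FPKM or more in the colon. Duodenum markers summed to 13065 FPKM or more in the duodenum and at most 3604 FPKM elsewhere, and ileum markers to 2665 FPKM or more in the ileum and at most 492 FPKM elsewhere. Exocrine pancreas markers summed to 18632 FPKM in 3xD5720 of the colon and to between 137 and 2980 FPKM in the other 7. Without that library the colon differences were 2.10 for Cbr2, 0.79 for Rac3 and 2.86 for 5033404E19Rik. Pancreas markers summed to between 590 and 30943 FPKM in the duodenum and to at most 567 FPKM in the ileum. Stomach markers reached 10161 FPKM in the duodenum. The part of these transcripts in the levels between tissues was not tested. Recovered reads per library ran from 14329423 to 35560010 over the 3 tissues.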

How the data were processed

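Per the labels' protocols, poly(A) RNA libraries were prepared with a NEBNext Ultra II kit and their reads were aligned in CLC Genomics Workbench. The submitters' processing notes also name kallisto 0.45.0, DESeq 1.14.0, DESeq2 and mm9, with no role. The authors deposited FPKM for each gene symbol, scaled within each table: the 7- and 8-library values of a tissue differ by a constant per library. The sources used here do not state whether counting used strand.

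All 171528 values of the 8-library ileum table repeat those of the duodenum, and the 7-library ileum table was used instead. Columns named Vehicle were taken as the deficient group, since the tables compare minusD with 3xD and hold no other group. Column numbers are not tied to the labels' replicates. Between duodenum and ileum all 7 same-numbered pairs correlated over 0.1 in their deviations from the group means (0.12 to 0.54). A replicate block by column number was run as an alternative, and it grouped the colon libraries too.

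Whole reads were recovered from the FPKM steps (within 0.0001 of a whole number in every library) for 14566 of 17527 genes (83.1%), the 3 members among them. Their sums give the depths stated in the report and put the libraries on a common scale for the tests between tissues. The recovery and the tests were tested on simulated data. Tests used limma 3.58.1 under R 4.3.3 (lmFit and a trended eBayes) on log2(FPKM + 1), two-sided, for genes that reached 1 FPKM in 3 or more libraries, with Benjamini-Hochberg adjustment over all genes tested at 0.05. Treatment was fitted within each tissue, and levels between tissues in a fit of 6 group means over 23 libraries. Standard errors of the members' treatment differences come from their own 2 groups. Pooled-read ratios are scaled by the deposited FPKM factor of each library, and their intervals are exact at 95%.

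The members and the lists were chosen with earlier results of these data known. A neighbouring gene and a list of GTPases are not reported here. Named genes were the members, the genes within 100 kb, the panel with Vdr, list members that passed or had the 3 smallest p-values in the colon, and the 5 genes most like each member. Alternatives covered the pseudocount, scaling, filters, naming scheme, replicate block, single treatment groups and left-out libraries. Genes at or near 0 were given as values or as pooled reads. Gene positions come from gencode vM1 on NCBIM37 and promoters from RefSeq on GRCm38.p6, which held Cbr2, Rac3, Dcxr and Slc30a10.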

Additional observations from a re-analysis of the deposited data

Results flagged for a closer look

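Groups of 4 libraries were searched for a library far from the other 3, by the gap to its nearest neighbour over the group's range. Of 77 groups of members and neighbours, 8 held such a library, where chance gives about 1 in 20 for independent groups. These groups share their libraries and are not independent, so no excess over chance is read from the 8. The only one among the members was Cbr2 in the colon of deficient 2, at 22.6 FPKM against 15.2 to 15.5 FPKM. In treated 1 of the colon, 3 neighbours stood apart: Dcxr at 57.5 FPKM (others 30.4 to 33.2), Lrrc45 at 22.2 FPKM (17.3 to 17.96) and Dus1l at 33.3 FPKM (22.9 to 23.8). These are values on the deposited scale. The factors to the common scale were 0.846 for treated 1, 0.983 for 3xD5711, 0.774 for 3xD5720 and 0.956 for 3xD5734 of the colon. The part of scaling in these gaps was not tested. The other 4 were Eprs in the colon of minusD5718, at 30.2 FPKM (40.2 to 41.2), Aspscr1 in the duodenum of 3xD5734, at 65.3 FPKM (44.7 to 47.6), Gps1 in the duodenum of deficient 1, at 17.5 FPKM (22.1 to 22.98), and Dus1l in the ileum of 3xD5711, at 27.8 FPKM (23.3 to 23.9).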

How the results depend on the processing

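Differences are on the log2 scale. Under the serial columns alone, treated minus deficient was -0.30 for Cbr2 in the duodenum and 2.76 in the colon, 1.00 for Rac3 in the colon and 0.42 for 5033404E19Rik in the ileum. Colon minus small intestine in these differences was then 3.06 (duodenum) and 2.26 (ileum) for Cbr2 and 1.07 (duodenum) for Rac3. The 4-digit columns alone gave 0.62 for Rac3 in the colon and could not be fitted in the ileum, whose deficient libraries are serial. For 5033404E19Rik a pseudocount of 0.1 gave 2.75 in the duodenum and 2.53 in the ileum, a pseudocount of 0.5 gave 1.31 and 1.13, and the colon then exceeded the duodenum by 0.35 and the ileum by 0.56 at 0.1. Between tissues, deficient libraries alone gave 0.65 for Cbr2 (ileum minus duodenum), 0.34 for Rac3 (colon minus ileum) and 0.0017 for 5033404E19Rik (ileum minus duodenum, a change of sign around 0), and treated libraries alone gave 0.33 for Rac3 (ileum minus duodenum, adjusted p = 0.102). The cause of these shifts was not tested. Fewer libraries entered the values of a single naming scheme or treatment group, whereas the pseudocount settings used every library. Leaving out a library moved the count of list genes past the threshold between 1 and 2 in the duodenum (Rdh5 added without treated 1) and between 0 and 1 in the colon (Cyp24a1 added without treated 1). The other 213 values under these settings and 413 with a library left out kept their direction and side of the threshold or moved by less than the spread.

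Same-numbered libraries correlated at -0.04 to 0.43 between duodenum and colon (7 of 8 pairs at 0.12 or more) and at 0.06 to 0.37 between ileum and colon. Not every pair with the colon was thus over 0.1. The block still grouped same-numbered libraries of all tissues, the colon included, with a single correlation of 0.30. A replicate block by column number gave 4.36, 3.53 and 0.83 for Cbr2, 1.47, 0.90 and 0.57 for Rac3 and 3.75, 3.82 and -0.07 for 5033404E19Rik (colon minus duodenum, colon minus ileum, ileum minus duodenum) and changed no call. Treated and deficient columns of a tissue share no number beyond 1, so no block was possible there. The deposited scale was chosen as an alternative after the data were seen. The 7-library tables were run for the members' treatment differences alone. Few reads limit what can be said of Cbr2 and 5033404E19Rik in the small intestine, where most libraries hold fewer than 30 of either.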
